A study of Mus musculus with 10 samples.

Results

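D1E6 and E2G7 are mouse embryonic stem cell (mESC) clones that lack different subunits of the same histone deacetylase complex, and they were the most alike of all clone pairs that combine both knockouts. D1E6 is a *Dnttip1* KO clone and E2G7 an *Elmsan1* KO clone, each with 2 RNA-seq libraries, so the pair makes up 4 of the 10 libraries of the study. The other 6 libraries are 2 of the parental WT cells, 2 of the *Dnttip1* KO clone D2A7 and 2 of the *Elmsan1* KO clone E2E8. All lines derive from male C57/BL6 Bruce-4 mESCs grown in 2iL medium, which holds LIF and inhibitors of MEK and GSK3, and every knockout clone was grown from a single cell after transient delivery of Cas9 and 1 guide RNA. With 1 clone of each knockout in the pair, a difference that belongs to the lost gene and a difference that belongs to the clone cannot be told apart within it.

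The pair was chosen on measured values. Over 11270 genes with at least 1 FPKM (fragments scaled to exon length and to the mapped fragments of the library) in every library, R2 between the changes of D1E6 and E2G7 from WT was 0.848. The next of the pairs from different knockouts was D1E6 and E2E8 at 0.370, followed by D2A7 and E2G7 at 0.295 and D2A7 and E2E8 at 0.107. All 6 clone pairs share the WT libraries in this measure, and since it selected the pair, the closeness of D1E6 and E2G7 is given as a description without a test. The genes that differed between the clones in spite of that choice, and how the same genes behaved in the clone pair D2A7 and E2E8, which shares no library with it, are the subject of what follows.

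MiDAC, the mitotic deacetylase complex, is a class I histone deacetylase complex built from HDAC1 or HDAC2, the scaffold protein DNTTIP1 and the ELM2-SANT protein ELMSAN1, which binds the deacetylase. TRERF1 and ZFP541 are relatives of ELMSAN1, and cyclin A2 and CDK2 have been found with the complex. Histone deacetylases remove acetyl groups from histone tails and are mostly known as repressors, although their loss both raises and lowers the RNA of many genes.

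The 2 sites that set the clones apart by design are shown because they tell where each gene was cut. They were found once each in the NCBIM37 genome, with the guide in lower case and the adjacent PAM (the NGG motif that Cas9 needs) in capitals, 5′ to 3′ on the plus strand. The first lies in coding sequence of exon 2 of *Dnttip1*, the second in coding sequence of exon 3 of *Elmsan1*, with exons numbered along the transcripts of the GENCODE vM1 annotation, where other annotations may number them differently. *Elmsan1* is the gene that the table lists under the older symbol *C130039O16Rik*, and it is read from the minus strand.
*Dnttip1* site, chr2:164572230-164572252: acatcggcaggtgcagcgaaGGG
*Elmsan1* site, chr12:85512612-85512634: gctctcttggcggctaaggcAGG

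*Dnttip1* (chromosome 2, 164571483 to 164594107, plus strand, GENCODE vM1 on NCBIM37) was measured at 2.59 and 2.63 FPKM in D1E6 and at 7.63 and 7.77 FPKM in E2G7, against 8.15 and 8.43 FPKM in WT. Both D1E6 libraries lay far below both E2G7 libraries, and the E2G7 libraries lay just below WT. The log2 fold change of D1E6 against E2G7 was -1.54 (SE, the standard error, 0.0403, limma adjusted p = 0.0107). *Elmsan1* (chromosome 12, 85490126 to 85559831, minus strand) was at 8.65 and 8.55 FPKM in D1E6 and at 4.62 and 4.75 FPKM in E2G7, with WT at 5.53 and 5.39 FPKM between the clones. Its log2 fold change of 0.85 (SE 0.0376, adjusted p = 0.0181) was thus made of a level above WT in D1E6 (0.62, adjusted p = 0.00364) and a level below WT in E2G7 (-0.23, adjusted p = 0.039, short of a 1.5-fold change). E2G7 therefore kept most of the RNA of the gene targeted in it, and RNA of a cut gene does not measure its protein.

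Among the other genes of the complex, the relative *Trerf1* was at 1.57 and 1.5 FPKM in D1E6 and at 0.980 and 0.952 FPKM in E2G7, above WT (0.446 and 0.563 FPKM) in all 4 libraries. It was higher in D1E6 by a log2 fold change of 0.61 (SE 0.0772, adjusted p = 0.061), a call that was lost without D1E6 replicate 1, under quantile normalization (0.51) and with a pseudocount of 1. In the clone pair D2A7 and E2E8 the order was turned, with 0.804 and 0.976 FPKM in D2A7 and 1.42 and 1.38 FPKM in E2E8. *Hdac1*, *Hdac2*, *Ccna2* and *Cdk2*, which encode the deacetylases, cyclin A2 and its kinase, were not called between D1E6 and E2G7, with log2 fold changes of 0.04, -0.12, 0.02 and -0.04. *Zfp541*, a germ cell relative of *Elmsan1*, was listed at 0 to 0.00544 FPKM in the 4 libraries and was not tested. Of 30 subunit genes of the other class I deacetylase complexes, none was called between the clones, where 1.13% of all genes were. Their log2 fold changes ran from -0.13 to 0.16.

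**Figure D1:**
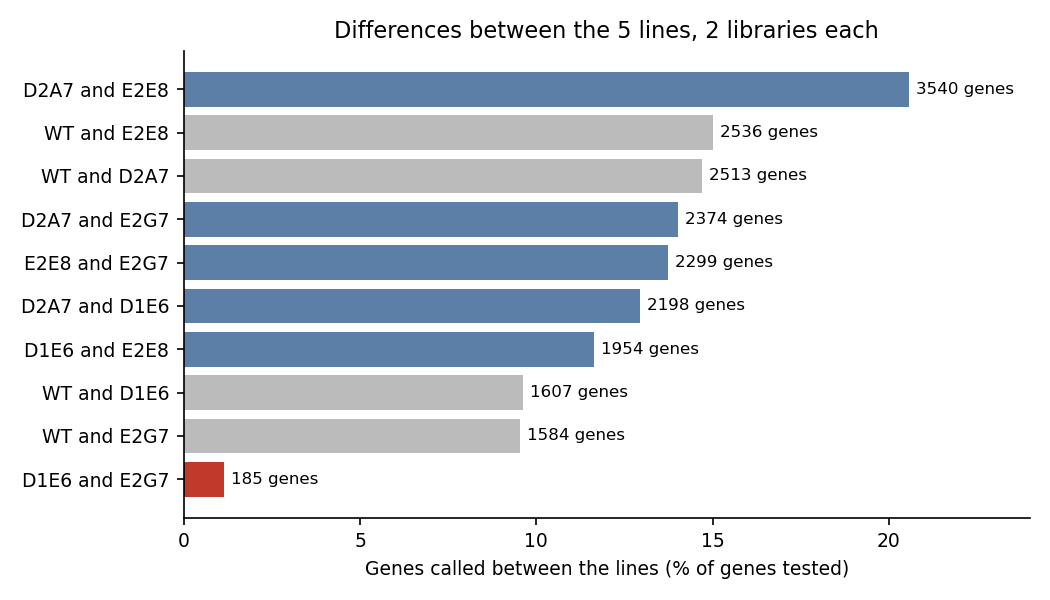
Share of the genes tested that were called (at least 1.5-fold with p under 0.01) between each pair of the 5 lines, as bars on an axis from 0 in percent, with the number of genes beside each bar. D1E6 and E2G7 (red, 185 genes) stand below every other pair of clones (blue) and below every clone set against WT (grey).

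A gene was called where it changed at least 1.5-fold with an unadjusted p under 0.01 in limma, the rule of the study. Of 16435 genes tested, 1.13% were called between D1E6 and E2G7: 133 were higher in D1E6 (0.809%) and 52 were lower (0.316%). The same rule called 9.63% of genes between D1E6 and WT (4.39% higher and 5.24% lower in D1E6) and 9.55% between E2G7 and WT (3.47% and 6.07%), 12.9% between the 2 *Dnttip1* KO clones and 13.7% between the 2 *Elmsan1* KO clones. At an adjusted p under 0.05 with a 1.5-fold change, 14 genes were higher (0.0852%) and 10 lower (0.0608%). Quantile normalization gave 76 higher and 72 lower genes, and leaving out D1E6 replicate 2 gave 123 higher and 122 lower, so the excess of genes that were higher in D1E6 depends on the scaling and on that library. Leaving out each library in turn gave 26 to 122 lower genes and 115 to 136 higher ones. Over the 11270 genes the median absolute log2 difference between D1E6 and E2G7 was 0.0652, and 45 genes differed by 1.5-fold or more. Between the 2 libraries of a clone these values were 0.0481 and 49 genes for D1E6 and 0.0456 and 47 genes for E2G7. The other 5 clone pairs had median differences of 0.169 to 0.227 and 922 to 1775 such genes. These distances, and the calls per pair, are descriptions, since the pair was selected for its likeness over the same genes and libraries, and a difference between means of 2 libraries carries less noise than a difference between single libraries.

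Most calls were of little RNA. Protein-coding genes made up 83 of the 185 calls (64 higher and 19 lower). A further 46 were annotated microRNA hairpins, 24 higher and 22 lower, which rested on at most 40 fragments in any of the 4 libraries, and 23 of them had a library at 0. Total RNA libraries do not measure mature microRNAs, and near-identical hairpins moved in opposite directions (*Mir467a-2* and *Mir467a-9* were higher and *Mir467a-7* lower), so these calls are uncertain. At a mean of at least 1 FPKM over the 4 libraries, 47 genes were higher and 18 lower, of which 28 and 9 were protein-coding. Fold changes are on the log2(FPKM + 0.1) scale, which understates the change of low genes.

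**Figure D2:**
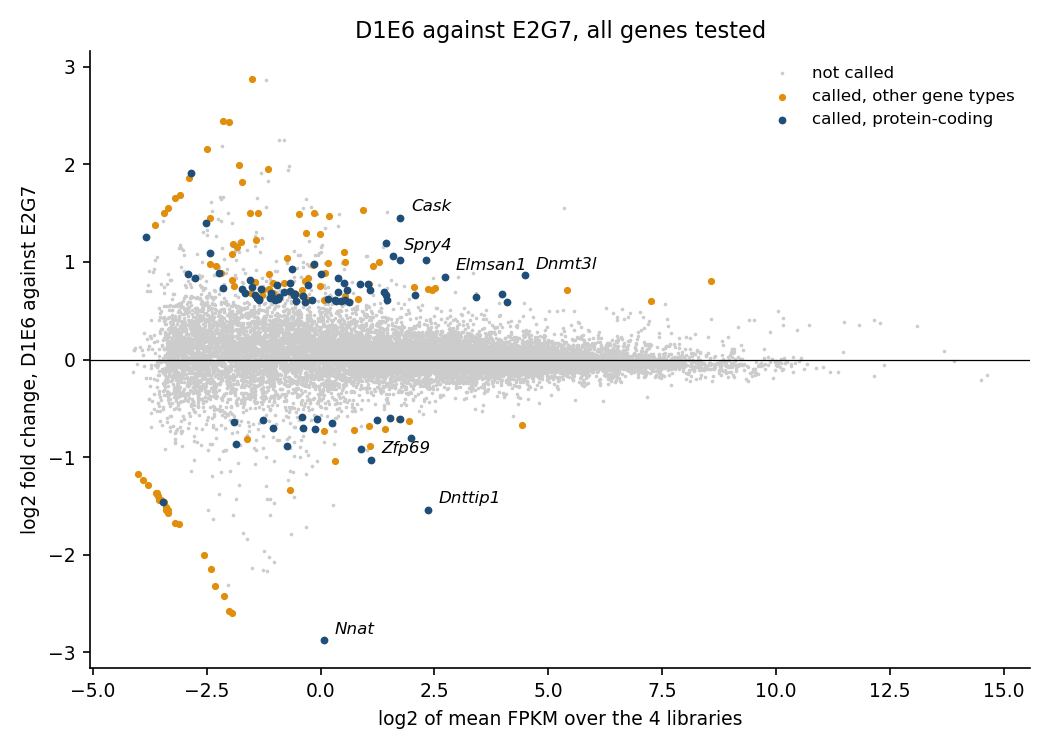
Log2 fold change of D1E6 against E2G7 (vertical) against log2 of the mean FPKM of the 4 libraries (horizontal) for the 16435 genes tested, with called protein-coding genes in blue, other called genes in orange and the rest in grey. Most called genes of other types sit at the left, below 1 FPKM, and the arc of orange points at the lower left is made mostly of microRNA hairpins.

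The ERK pathway carries growth factor signals from RAS through MEK to the kinase ERK, and ERK turns on its own inhibitors, so the RNA of Sprouty, DUSP and ETV genes is a common readout of its activity. The MEK inhibitor in the medium acts on this pathway in all lines. *Spry4*, which encodes a Sprouty inhibitor of receptor kinase signalling, was at 4.07 and 4.18 FPKM in D1E6 and at 1.86 and 1.97 FPKM in E2G7. WT (0.428 and 0.397 FPKM), D2A7 (0.635 and 0.639 FPKM) and E2E8 (0.503 and 0.458 FPKM) were all far lower. The log2 fold change between D1E6 and E2G7 was 1.06 (SE 0.0552, adjusted p = 0.0276), on top of changes from WT of 3.02 in D1E6 and 1.96 in E2G7. *Etv4*, an ETS transcription factor gene induced by FGF and ERK, had the same order. It was at 4.29 and 4.82 FPKM in D1E6, at 2.04 and 2.30 FPKM in E2G7 and between 0.497 and 0.818 FPKM in the other 6 libraries, and its log2 fold change between the clones was 1.02 (SE 0.0871, adjusted p = 0.043).

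*Dusp6*, which encodes the phosphatase that switches off ERK, had the same order of the 3 levels. Its levels of 11.3 and 10.8 FPKM in D1E6 and 7.81 and 7.81 FPKM in E2G7 gave a log2 fold change of 0.49 (adjusted p = 0.0412), short of a 1.5-fold change, and the other 6 libraries held 4.15 to 5.11 FPKM. *Etv5*, the closest relative of *Etv4*, was at 76.9 and 77.6 FPKM in D1E6 and at 86.4 and 83.1 FPKM in E2G7 and was not called. Of the 17 ERK feedback and immediate early genes tested, 2 were called higher in D1E6 (*Spry4* and *Etv4*) and none lower, where 0.809% of all genes were called higher and 0.316% lower, and the median log2 fold change was 0.15 against 0.01 over all genes tested. Set against WT, 8 of 18 were called higher in D1E6 (4.39% of all genes) and 5 of 18 in E2G7 (3.47%), and none was called lower in either clone (5.24% and 6.07%). In D2A7 against E2E8 the list gave 1 gene higher (*Spry2*) and 2 lower (*Spry1* and *Dusp4*), with 10.5% and 10.1% over all genes and a median of -0.01. *Spry4* and *Etv4* were not called in that pair (0.35 and 0.04), and the difference between the clone pairs, a test that 21.8% of all genes passed, was 0.70 (adjusted p = 0.0021) for *Spry4* and 0.98 (adjusted p = 0.00434) for *Etv4*. Both genes had been called between D1E6 and E2G7, which enters this difference, so the share over all genes is no background for them.

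**Figure D3:**
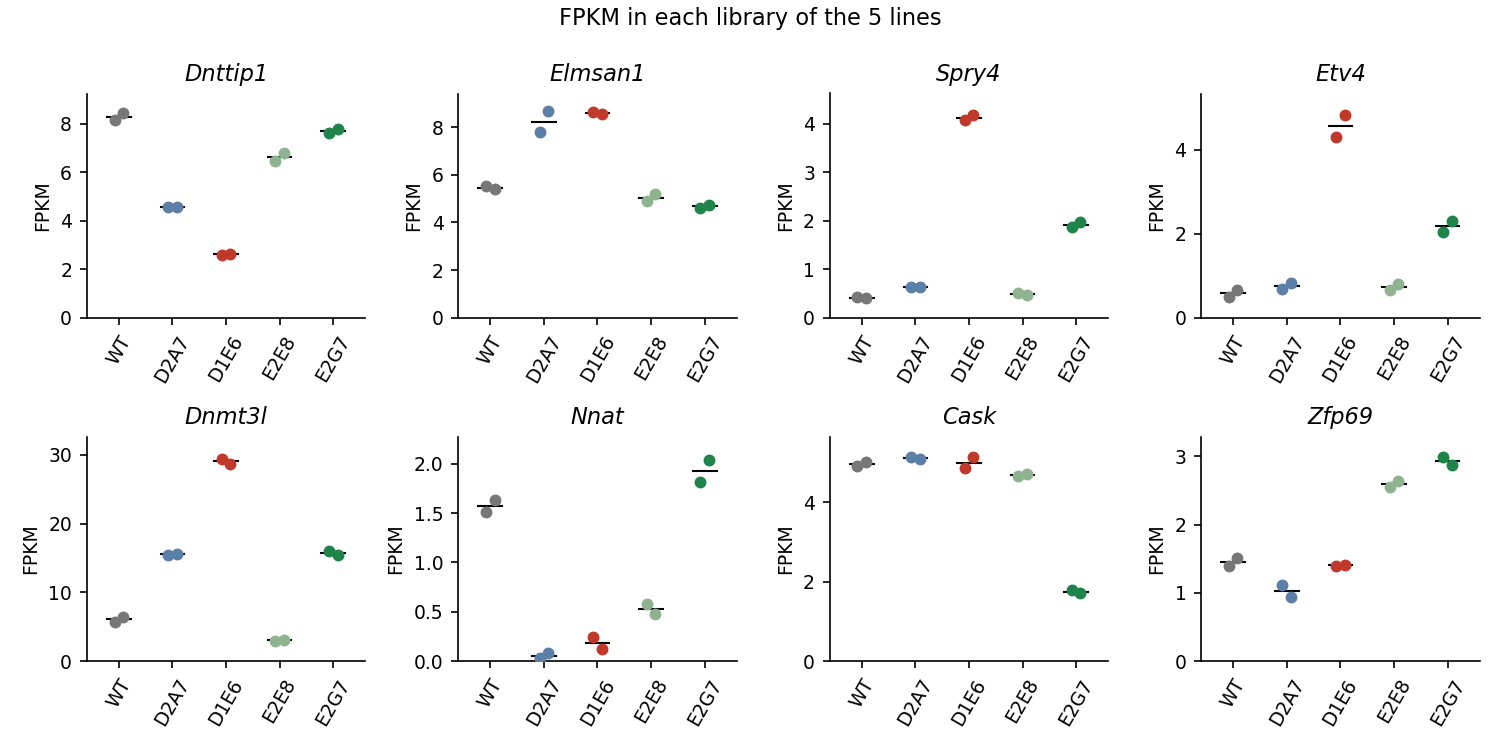
FPKM of 8 genes in each library of the 5 lines, 1 panel per gene with its own axis from 0, with a point per library and a bar at the mean of the 2 libraries. *Spry4* and *Etv4* stand out in D1E6 and, at a lower level, in E2G7, *Cask* is low in E2G7 alone, and *Zfp69* separates D1E6 and D2A7 from E2E8 and E2G7.

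*Dnmt3l* encodes a cofactor without catalytic activity that stimulates the de novo DNA methyltransferases DNMT3A and DNMT3B. It was at 29.4 and 28.7 FPKM in D1E6 and at 16.1 and 15.4 FPKM in E2G7, both above WT at 5.74 and 6.44 FPKM. The D1E6 libraries lay above both E2G7 libraries, with a log2 fold change of 0.87 (SE 0.0357, adjusted p = 0.0181). D2A7 (15.5 and 15.5 FPKM) also lay above E2E8 (2.91 and 3.14 FPKM), so *Dnmt3l* was called higher in the *Dnttip1* KO clone of both pairs, by 2.33 in the second. *Icosl*, the ligand of a T cell costimulatory receptor and the next gene on chromosome 10 (77532105 to 77546000, with *Dnmt3l* at 77504692 to 77526367, both on the plus strand), was at 1.55 and 1.86 FPKM in D1E6 and at 0.991 and 0.822 FPKM in E2G7. Its log2 fold change was 0.83 between D1E6 and E2G7 (adjusted p = 0.073) and 1.10 between D2A7 and E2E8.

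The DNA methyltransferase genes themselves were not called between the clones. *Dnmt3b* was at 10.8 and 11.1 FPKM in D1E6 and at 13.5 and 13.6 FPKM in E2G7, a log2 fold change of -0.32 (adjusted p = 0.0469) that did not reach 1.5-fold. *Dnmt3a* (-0.30) and *Dnmt1* (-0.12) had adjusted p-values of 0.144 and 0.106. *Gadd45a*, a stress-induced gene linked to DNA demethylation and repair, was at 13.7 and 13.5 FPKM in D1E6 and at 10.1 and 10.1 FPKM in E2G7 (0.42, adjusted p = 0.0386), also short of the fold threshold. Of the 21 DNA methylation and TET genes tested, *Dnmt3l* was the only gene called, where 1.13% of all genes were. The median of the list was -0.04.

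Imprinted genes are expressed from 1 parental copy that DNA methylation marks. *Nnat* (chromosome 2, 157385814 to 157388258, plus strand), which encodes the small membrane protein neuronatin, was at 0.249 and 0.123 FPKM in D1E6 and at 1.82 and 2.04 FPKM in E2G7. WT held 1.51 and 1.63 FPKM, near E2G7, and D1E6 was thus the clone that differed. The log2 fold change was -2.87 (SE 0.243, adjusted p = 0.043) and rested on 22 and 14 fragments in D1E6 against 268 and 323 in E2G7. D2A7 (0.0264 and 0.0822 FPKM) was likewise below E2E8 (0.577 and 0.480 FPKM), by a log2 fold change of -2.04. *Nap1l5*, another imprinted gene, was at 0.328 and 0.271 FPKM in D1E6 and at 0.0524 and 0.0489 FPKM in E2G7 (1.39, adjusted p = 0.0623). It rested on 30 and 32 against 8 and 8 fragments, and its call was lost with a pseudocount of 1. *Nnat* and *Nap1l5* were the only calls among the 29 genes tested of imprinted loci other than *Dlk1-Dio3* and *Peg10-Sgce*. The 2 and 7 genes tested of those loci gave none, where 1.13% of all genes were called. *Peg10*, a retrotransposon-derived placental gene, was low in both clones (0.768 and 0.703 FPKM in D1E6, 0.631 and 0.723 FPKM in E2G7) against 11.8 and 12.4 FPKM in WT. The summed FPKM of the genes listed for its locus was also below WT (21.5 and 22.2) in D2A7 (4.85 and 4.99) and E2E8 (9.32 and 9.37).

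*Cask* (X chromosome, 13094206 to 13428493, minus strand), which encodes a scaffold protein of cell junctions and synapses, was the protein-coding gene with the largest fold change towards D1E6 at 1 FPKM or more. It was at 4.85 and 5.14 FPKM in D1E6 and at 1.79 and 1.70 FPKM in E2G7. The other 6 libraries, from 4.66 to 5.15 FPKM, were all at the level of D1E6, so E2G7 alone was low. The log2 fold change was 1.45 (SE 0.057, adjusted p = 0.0181), with 0.13 in D2A7 against E2E8. A like pattern was seen for *Pmaip1*, the p53 target that encodes the pro-apoptotic protein NOXA, at 20.3 and 20.7 FPKM in D1E6, 13.0 and 14 FPKM in E2G7, 20.3 and 20.5 FPKM in WT and 23.6 and 22.7 FPKM in D2A7, with E2E8 close to WT (0.59, adjusted p = 0.0386). This change lay at the fold threshold. The call was lost under quantile normalization (0.57), with a pseudocount of 1, without D1E6 replicate 2 or without E2G7 replicate 1. *Pmaip1* was the only call among 19 p53 targets, where 1.13% of all genes were called. Of these targets, *Cdkn1a*, the p21 inhibitor, had a log2 fold change of -0.20.

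*Bnip2*, chosen after its values were seen, showed the reverse case, in which D1E6 alone stood apart. It encodes a BCL2-interacting protein and was at 19.5 and 19.6 FPKM in D1E6, at 12.1 and 12.1 FPKM in E2G7 and at 9.58 to 12.5 FPKM in the other 6 libraries (0.67, SE 0.0258, adjusted p = 0.0181). *Pglyrp1*, a peptidoglycan-binding protein of innate immunity, was at 2.98 and 2.78 FPKM in D1E6, below all other libraries, and at 4.99 and 5.08 FPKM in E2G7, above all others (-0.80, SE 0.0564, adjusted p = 0.0386). *Plcl2*, a phospholipase C-like gene without catalytic activity, had the same arrangement at 2.20 and 2.33 against 3.48 and 3.42 FPKM (-0.60, adjusted p = 0.0471). *Parp12*, an interferon-induced ADP-ribosyltransferase, was highest in E2G7 (2.90 and 2.85 FPKM) and at 1.87 and 1.83 FPKM in D1E6 (-0.62, adjusted p = 0.0468). The call of *Parp12* was lost with a pseudocount of 1.

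*Zfp69*, a KRAB zinc finger gene, was lower in both *Dnttip1* KO clones than in both *Elmsan1* KO clones. It was at 1.39 and 1.41 FPKM in D1E6, at 2.99 and 2.87 FPKM in E2G7 and at 1.39 and 1.51 FPKM in WT, and D1E6 was at the level of WT. The log2 fold change was -1.03 (SE 0.0602, adjusted p = 0.035). D2A7 (1.12 and 0.939 FPKM) lay below E2E8 (2.55 and 2.64 FPKM) in the same way, by -1.25, and the difference between the pairs of 0.23 did not pass the test (adjusted p = 0.17). A difference that does not pass is not shown to be absent, and the part of the lost gene was not tested. *Ccdc136*, a coiled-coil gene, was at 2.62 and 2.64 FPKM in D1E6 and at 3.90 and 4.15 FPKM in E2G7 (-0.61, adjusted p = 0.0468) and was lower in D2A7 than in E2E8 by -1.32. It lies on chromosome 6, whose genes at 1 FPKM or more had a median of -0.47 in D2A7 against E2E8.

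D2A7 and E2E8 show the same genes in libraries that neither D1E6 nor E2G7 contributed to. Of the 133 genes higher in D1E6, 131 were tested there, and 43 (32.8%) were called higher in D2A7 than in E2E8, where 10.5% of all genes were. Of the 52 lower genes 45 were tested, and 7 (15.6%) were called lower, against a background of 10.1%. The 43 genes are 2.38% of the 1808 genes called higher in D2A7 than in E2E8 and the 7 genes 0.404% of the 1732 called lower. Another 9 of the higher and 3 of the lower genes were called in the opposite direction. Counting signs alone, 89 of 131 (67.9%) of the higher genes were also higher in D2A7, with 50.5% over all 16241 genes tested in both pairs, and 24 of 45 (53.3%) of the lower genes were also lower. These shares are set beside the background without a test of their own. That pair holds the same 2 knockouts in other clones, and it differed at 20.6% of genes in all.

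**Figure D4:**
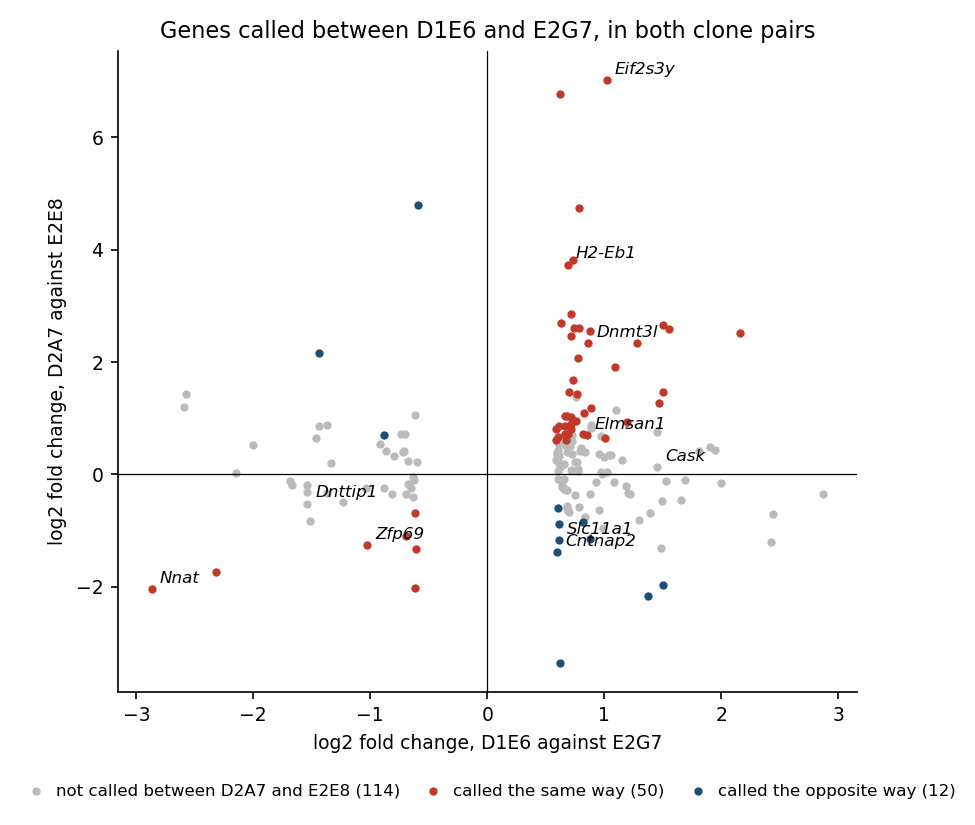
Log2 fold change of D1E6 against E2G7 (horizontal) and of D2A7 against E2E8 (vertical) for the 176 genes called between D1E6 and E2G7 and tested in both pairs, coloured by their call in D2A7 against E2E8. The 50 genes called the same way (red) lie mostly at the upper right, the 12 called the opposite way are blue, and 114 (grey) were not called in the second pair.

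At a mean of at least 1 FPKM, 12 protein-coding genes were called higher and 3 lower in the *Dnttip1* KO clone of both pairs. *Elmsan1* itself, *Dnmt3l*, *Icosl*, *Zfp69*, *Nnat* and *Ccdc136* are described above, and the Y-linked *Eif2s3y* is described with its chromosome. *Hdac7*, a class IIa deacetylase gene chosen after its values were seen, was at 1.83 and 1.89 FPKM in D1E6 and at 1.05 and 1.36 FPKM in E2G7 (0.59, adjusted p = 0.107), with a log2 fold change of 0.81 in the second pair. The call of *Hdac7* lay at the fold threshold, and its dependence on the settings was not tested. For several others the second pair was far wider than the first, with D2A7 the highest of all lines. *Acsf2*, an acyl-CoA synthetase gene, was at 2.54 and 2.80 FPKM in D1E6 and at 1.53 and 1.62 FPKM in E2G7 (0.71, adjusted p = 0.0549), with D2A7 at 13.8 and 14.2 FPKM and E2E8 at 1.71 and 2.03 FPKM. *Birc7*, an inhibitor of apoptosis, was at 2.76 and 2.53 against 1.51 and 1.47 FPKM (0.78, adjusted p = 0.0478) and reached 7.45 and 8.03 FPKM in D2A7. The MHC class II gene *H2-Eb1* was at 1.66 and 1.63 against 0.845 and 1.12 FPKM (0.69, adjusted p = 0.0956), and D2A7 held 8.07 and 7.37 FPKM. *Msln*, which encodes the surface protein mesothelin (0.88, adjusted p = 0.1), and *Fam189a2* (0.70, adjusted p = 0.0868) also belonged to this group, and *Gm10337*, a short gene model measured by 21 to 35 fragments a library, was higher in both pairs by 1.19 and 0.93. With every library kept, the calls of *Msln*, *H2-Eb1* and *Fam189a2* were lost with no variance trend and with a pseudocount of 1. Those of *Acsf2*, *Birc7*, *Icosl* and *Ccdc136* were also lost with a pseudocount of 1. That of *Msln* was also lost with no filter. The calls of *Msln* and *H2-Eb1* were lost without either D1E6 replicate, that of *Msln* also under quantile normalization, and those of *H2-Eb1* and *Fam189a2* without E2G7 replicate 1. The call of *Fam189a2* was also lost without D1E6 replicate 2, and that of *Ccdc136* without E2G7 replicate 2.

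A further 4 named genes were called between D1E6 and E2G7 and not between D2A7 and E2E8. *Aqp8*, a water channel gene, was at 1.79 and 1.86 FPKM in D1E6 and 0.905 and 1.12 FPKM in E2G7 (0.78, adjusted p = 0.069), while E2E8 held the most of all lines at 4.31 and 4.09 FPKM. *1700092M07Rik* (0.77), *Gm17330* (-0.92) and *Fam83b* (-0.65), a gene of RAS and MAPK signalling, were called at 0.806 to 2.51 FPKM with adjusted p-values of 0.0561, 0.115 and 0.0915. The call of *1700092M07Rik* was lost when all 10 libraries were fitted together (adjusted p = 0.278) and with a pseudocount of 1. *Gm17330* rested on 16 and 33 fragments in D1E6 against 68 and 68, and its call was lost without either E2G7 replicate and in several refits that kept all libraries: FPKM as deposited, a pseudocount of 0.01, no filter, no variance trend, the replicate block and all 10 libraries together. That of *Fam83b* was lost without D1E6 replicate 1 or either E2G7 replicate and with no variance trend. That of *Plcl2* was lost without D1E6 replicate 1 or E2G7 replicate 1 and with FPKM as deposited. The calls of *Aqp8*, *Fam83b* and *Plcl2* were also lost with a pseudocount of 1.

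The study asked about genes of neural development. Their closeness in D1E6 and E2G7 is given as a description, since the pair was chosen for its likeness. *Slit3*, the secreted axon guidance ligand, was at 0.0273 and 0.0185 FPKM in D1E6 and at 0.0245 and 0.0153 FPKM in E2G7, against 0.620 and 0.496 FPKM in WT, and was too low in the pair to be tested. *Ntn1*, which encodes the guidance ligand NETRIN1, was at 12.3 and 12.4 FPKM in D1E6 and at 12.8 and 13.5 FPKM in E2G7, with WT at 24.7 and 25.4 FPKM (-0.11 between the clones, adjusted p = 0.191). The adhesion molecule gene *Ncam1* was at 2.25 and 2.42 FPKM in D1E6 and at 1.63 and 1.66 FPKM in E2G7, so that E2G7 was the farther from WT (5.66 and 6.13 FPKM). The difference of 0.47 was below 1.5-fold (adjusted p = 0.0649). *Pacsin1*, a neuronal endocytosis gene, was below 0.4 FPKM in all 4 libraries (0.30, adjusted p = 0.309).

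None of 23 SLIT, NETRIN and ephrin genes and none of 22 semaphorin, plexin and neuropilin genes was called between the clones, with medians of -0.01 and 0.12. Over all genes tested 1.13% were called and the median was 0.01. At that share, a list of this size can hold no call without being set apart from other genes. Of 9 neural adhesion genes 1 was called, *Cntnap2*, a neurexin family gene, at 1.71 and 1.63 FPKM in D1E6, 1.09 and 1.03 FPKM in E2G7 and 0.497 and 0.503 FPKM in WT (0.60, adjusted p = 0.0621). D2A7 and E2E8 had it in the opposite order (-1.39), and the call in the first pair was lost without D1E6 replicate 1 or E2G7 replicate 2 and under quantile normalization (0.52). *Gap43*, a growth cone protein gene, was the only call among 11 neural progenitor and neuron markers (0.748 and 0.864 against 0.505 and 0.402 FPKM, 0.70, adjusted p = 0.0976), and WT spanned the same range at 0.760 and 0.416 FPKM. That call was lost without either D1E6 replicate or without E2G7 replicate 2, and also under quantile normalization, with the replicate block, with no filter and in the fit of all 10 libraries. Among 20 collagen and laminin genes *Col9a3*, a cartilage collagen chain, was called (0.688 and 0.666 against 0.329 and 0.384 FPKM, 0.76, adjusted p = 0.0766), but not without D1E6 replicate 1 or E2G7 replicate 1. With a pseudocount of 1, the calls of *Cntnap2*, *Gap43* and *Col9a3* were lost as well.

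Pluripotency genes had close values in D1E6 and E2G7. *Pou5f1* (OCT4) was at 287 and 271 FPKM in D1E6 and 289 and 289 FPKM in E2G7 (-0.06), *Sox2* at 138 and 143 against 138 and 137 FPKM (0.02) and *Nanog* at 285 and 295 against 270 and 262 FPKM (0.11). No gene of the naive (17 tested), core (10) or primed (11) pluripotency lists was called. *Tcl1*, a coactivator of AKT in the naive list, came nearest, at 54.8 and 56.6 FPKM in D1E6 and 39.3 and 39.0 FPKM in E2G7 (0.49, adjusted p = 0.0276). *Id1*, a BMP-induced inhibitor of differentiation, was at 1.52 and 1.48 against 1.36 and 1.75 FPKM, overlapping between the clones, and none of 12 BMP response genes was called. None of 30 cell cycle genes was called, *Cdkn1b* (p27) among them at 0.07, nor any of 26 cholesterol and fatty acid synthesis or 27 glycolysis and hypoxia genes. With 1.13% of all genes called in this pair, lists of 10 to 30 genes can hold no call without being set apart from other genes. Of all 33 gene lists examined, 10 held a called member, 22 held none and 1 had no member that could be tested.

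Genes with large changes from WT in both clones and no call between them show the levels the clones had in common. Their levels in D2A7 and E2E8 are not given here, so these changes are not shown to be particular to the pair. The comparisons with WT share the WT libraries. *2410004A20Rik* was at 44.2 and 43.0 FPKM in D1E6 and 49.3 and 50.6 FPKM in E2G7 against 11.6 and 10.9 FPKM in WT (1.91 and 2.12). The ephrin receptor gene *Epha1* was at 3.13 and 3.02 against 2.18 and 2.26 FPKM (1.98 and 1.55 from WT), *Chi3l1* at 1.86 and 1.93 against 1.46 and 1.46 FPKM (1.92 and 1.57), *St8sia1* at 1.59 and 1.60 against 1.40 and 1.45 FPKM (1.72 and 1.58) and *Nod2* at 1.5 and 1.53 against 1.24 and 1.33 FPKM (1.76 and 1.55). The non-coding *Gm16869* overlapped between the clones (1.98 and 1.64 against 2.27 and 1.19 FPKM). Downwards, the nuclear export factor gene *Nxf3* was at 0.428 and 0.453 against 0.550 and 0.414 FPKM (-3.93 and -3.82 from WT), and *C330008G21Rik* and *Gm10801* had changes from WT of -5.14 and -4.71 and of -3.35 and -3.73. *AY036118*, a transcript of the ribosomal DNA family, reached 120 FPKM in D1E6 replicate 2 against 13.4 to 14.3 FPKM in the other 3 libraries of the pair, so its level was not common to them. Its level may depend on rRNA removal, which was not measured here. It held 35677 and 2400 FPKM in the WT libraries, and the small nucleolar RNA model *SNORD113* was at 0 to 0.503 FPKM in the pair, with 6.52 and 2.85 FPKM in WT.

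The levels of whole chromosomes also set the clones apart. On chromosome 6, 550 genes at 1 FPKM or more had a median log2 fold change of 0.12 between D1E6 and E2G7, and 83.1% were higher in D1E6, against 50.4% of all 12014 genes. Their medians from WT were 0.43 in D1E6, 0.29 in E2G7, 0.39 in E2E8 and -0.08 in D2A7. The median of D2A7 against E2E8 was -0.47, which bears on the genes of this chromosome in that pair. *Cntnap2*, *Nap1l5*, *Epha1* and *St8sia1* lie on this chromosome, as do *Parp12* and *Ccdc136*, which were lower in D1E6. On chromosome 8, with 661 genes and *Nod2*, the median between the clones was -0.0006, and both lay above WT by 0.37 and 0.36. D2A7 (0.37) and E2E8 (0.35) lay above WT there as well, so this shift was not particular to the pair. Every other autosome and the X chromosome had medians between the clones from -0.02 to 0.01. Chromosome 6 held 5 of the 47 higher and 2 of the 18 lower calls at this level (1.27% of its genes, with 0.541% over all chromosomes). The number of chromosomes in the clones was not measured here, and the part of these shifts in the calls was not tested beyond the counts without them, which were 120 higher and 47 lower without chromosomes 6, M and Y.

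**Figure D5:**
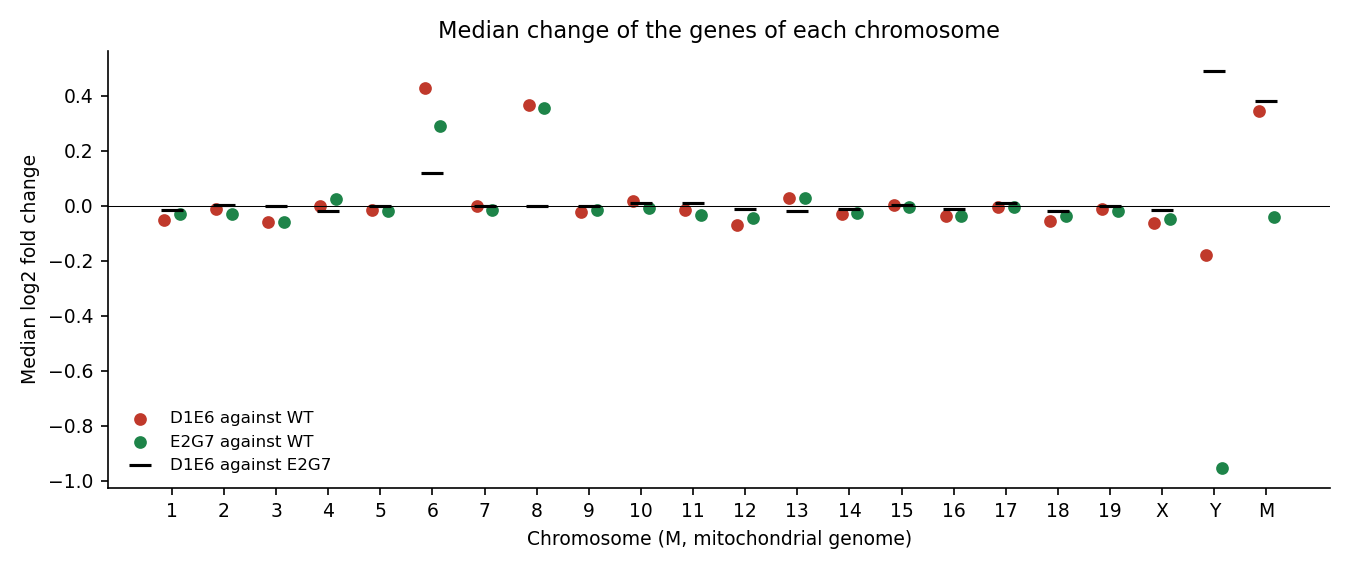
Median log2 fold change of the genes of each chromosome with a mean of at least 1 FPKM in the 4 libraries, for D1E6 against WT (red), E2G7 against WT (green) and D1E6 against E2G7 (black bars). The clones part on chromosomes 6, Y and M (the mitochondrial genome). Both lie above WT on chromosome 8, as did D2A7 and E2E8, which are not drawn.

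All 7 Y-linked genes tested were higher in D1E6 than in E2G7, by 0.19 to 1.02, and did not overlap between the clones, as was true in either direction of 53.8% of all genes tested. *Eif2s3y*, a translation initiation factor gene, was the only call, at 6.34 and 7.13 FPKM in D1E6 and 3.21 and 3.25 FPKM in E2G7 (1.02, SE 0.0643, adjusted p = 0.0351). WT held 6.42 and 5.82 FPKM, D2A7 13.2 and 13.1 FPKM and E2E8 0.00317 and 0 FPKM. *Ddx3y*, an RNA helicase gene, was at 11.5 and 11.7 against 8.44 and 8.32 FPKM (0.45, adjusted p = 0.0366) and *Uty*, a histone demethylase family gene, at 3.92 and 4.15 against 2.72 and 2.76 FPKM (0.53, adjusted p = 0.0496), both short of 1.5-fold and both below WT in either clone. In bulk RNA, fewer cells with a Y chromosome and less RNA per cell cannot be told apart.

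The 13 protein genes of the mitochondrial genome were all higher in D1E6, by 0.28 to 0.56, with none called and 2 at an adjusted p under 0.05, as were 77 of all 16435 genes. In D2A7 against E2E8 the list had a median of 0.40 with 4 genes called higher, and the 24 genes of chromosome M had a median of 0.49. *mt-Nd2*, a subunit of complex I, was at 168 and 171 FPKM in D1E6 and at 131 and 125 FPKM in E2G7 (0.39, adjusted p = 0.0469), and WT, at 126 and 140 FPKM, lay near E2G7. The nuclear long non-coding RNA *Neat1* was also higher in D1E6 (6.48 and 7.21 against 3.71 and 4.50 FPKM, 0.71, adjusted p = 0.0695), a call lost without E2G7 replicate 1. *Malat1*, transcribed next to it, was at 421 and 449 against 315 and 330 FPKM (0.42, adjusted p = 0.0552). The gene with the highest FPKM, the miscellaneous RNA *AC157822.1*, took 4.20% to 5.27% of the summed FPKM of the 4 libraries and overlapped between the clones.

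The library totals recovered from the FPKM values were 48262654 and 62336055 fragments in D1E6 and 80579601 and 86463773 in E2G7, so E2G7 was the deeper clone, and 31098269 to 75788434 in the other 6 libraries. The 4 libraries carried embryonic stem cell markers at a summed 1156 to 1161 FPKM over 9 genes (WT 1278 and 1287). The 8 fibroblast markers summed to 0.264 to 0.335 FPKM and the 6 mesoderm markers to 0.636 to 0.751 FPKM, each gene below 1 FPKM, and 5 of 9 listed markers of the 2-cell-like state, *Zscan4b*, *Zscan4d*, *Zscan4f*, *Zfp352* and *Gm4340*, were at 0. Primitive endoderm markers summed to 181 and 183 FPKM in D1E6 and to 166 and 168 FPKM in E2G7, and trophoblast markers to 25.4 and 26 FPKM and to 22 and 24 FPKM. WT was below both clones in these sums, at 117 and 122 FPKM and at 17.9 and 17.3 FPKM. The 5 neural markers measured summed to 95.0 and 95.3 FPKM in D1E6 and 96.2 and 96.5 FPKM in E2G7 (WT 62.3 and 58.6 FPKM), whereas the longer list of 19 neural progenitor and neuron genes summed to 180 and 187 FPKM in D1E6, 184 and 183 FPKM in E2G7 and 195 and 186 FPKM in WT, with 2 called higher and 3 lower than WT in each clone. The longer list of 13 fibroblast genes summed to 59.2 to 61.9 FPKM in the 4 libraries and to 65.1 and 65.4 FPKM in WT. The WT libraries stood further apart than those of any clone, with 145 genes beyond 1.5-fold between them against 44 to 68 in the clones, and *AY036118* at the levels given above, which bears on every change from WT. The part of depth and of these markers in the calls was not tested.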

How the data were processed

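Total RNA of 5 mESC lines, 2 libraries each, was sequenced as stranded, rRNA-depleted, paired-end libraries. The authors aligned to mouse build NCBIM37 (mm9), counted with HTSeq and deposited FPKM values of 34591 genes, and per the labels edgeR 3.16.5, limma and R 3.3.1 were used. Sequencers differed, and which library ran on which is not given in the sources used here. Here FPKM values were divided by size factors (median ratios over 11270 genes), log2(FPKM + 0.1) was taken, and limma was run on genes reaching 0.1 FPKM in 2 of the libraries compared, in version 3.58.1 (R 4.3.3, variance trend, p-values adjusted by Benjamini-Hochberg over all genes tested). A call needed 1.5-fold and p under 0.01, and a difference between clone pairs (an interaction term over 8 libraries) 1.5-fold and an adjusted p under 0.05. An exact permutation test of 2 against 2 libraries cannot give a two-sided p below 0.333, so none was used. The scripts were tested on simulated data. Coordinates and gene types come from GENCODE vM1, which matched 33606 IDs. FPKM values were whole multiples of 1 fragment (tolerance 0.02) for 98.1% to 98.4% of values under 100 fragments, which gave the depth, and counts cover counting error only.

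The libraries are called biological replicates by the study. Where they are not separate cultures, p-values measure only the spread between these libraries. Replicates differed by more than counting noise in every line, and most between the WT libraries. The labels number the libraries of each line 1 and 2 without saying that a number is shared, so no block was used. Named genes were the MiDAC genes, the 12 protein-coding genes called with the largest change in each direction at 1 FPKM or more, up to 10 called the same way in D2A7 and E2E8, 6 in each direction changed from WT in both clones, any called from WT in opposite directions (0 genes), 14 genes the study is about, up to 4 called members of each list and the gene with the most FPKM. The clone pair and the gene lists were chosen with earlier results of these data known. Clones are named by code, since the sources disagree on their KO numbers. Mature microRNAs were not analysed here.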

Additional observations from a re-analysis of the deposited data

Results flagged for a closer look

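For 18 genes named in the report, the difference of D1E6 from E2G7 departed from that of D2A7 from E2E8 by the interaction term (limma, 1.5-fold and adjusted p under 0.05, which 21.8% of 17600 genes passed). All 18 had been called between D1E6 and E2G7, and that difference is part of the term. The share over all genes is therefore no background for them, and 91 of the 185 genes called between D1E6 and E2G7 passed. The list is a description. The log2 difference between the clone pairs was positive where D1E6 exceeded E2G7 by more than D2A7 exceeded E2E8. It was 1.32 for *Cask*, 0.98 for *Etv4* and 0.70 for *Spry4*, which were not called in the second pair, and 1.37 for *Aqp8*, 1.20 for *Trerf1* and 1.98 for *Cntnap2*, which had the opposite sign there. It was 0.72 for *Ccdc136*, which was lower in the *Dnttip1* KO clone of both pairs and more so in D2A7. It was -1.02 for *Dnttip1*, whose RNA was lower in D1E6 than in D2A7.

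The second pair was the wider for *Dnmt3l* at -1.47, *Birc7* at -1.31, *Msln* at -1.68, *Acsf2* at -2.13, *H2-Eb1* at -3.05, *Fam189a2* at -0.77 and *Eif2s3y* at -6.00, the last with E2E8 near 0. For *Gm17330* (-1.45), *Pglyrp1* (-1.12) and *Plcl2* (-0.81), D1E6 was below E2G7 while D2A7 lay above E2E8 without a call.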

How the results depend on the processing

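The number of genes higher and lower in D1E6 than in E2G7 (133 and 52) fell to 25 and 12 with a pseudocount of 1. It was 50 and 18 with only genes at a mean of 1 FPKM and 14 and 10 at an adjusted p under 0.05. In alternatives chosen after seeing the data it was 65 and 20 with at least 50 fragments and 87 and 28 with only protein-coding genes. The main fit called 64 and 19 protein-coding genes, so fitting that gene type alone called more of them. Quantile normalization gave 76 higher genes, and voom on recovered fragments, where 98.1% to 98.4% of low values were whole, gave 34 lower and 145 higher genes. Leaving out each library in turn gave 115 to 136 higher and 26 to 122 lower genes (122 without D1E6 replicate 2, 26 without E2G7 replicate 1 and 29 without E2G7 replicate 2). With a single library left in a clone, it is assumed to vary like the other clone. Calls shared with D2A7 and E2E8 (43 higher and 7 lower) became 9 and 1 with a pseudocount of 1, 19 and 2 at 1 FPKM, 28 and 11 with quantile normalization, 5 and 4 at an adjusted p, 24 higher with at least 50 fragments, and 27 to 41 and 4 to 13 without each library (27 without D2A7 replicate 2, 28 and 13 without D1E6 replicate 2, 4 without E2E8 replicate 1 or either E2G7 replicate). Genes higher and lower than WT became 349 and 412 in D1E6 and 253 and 458 in E2G7 with a pseudocount of 1, and 506 and 555 were lower at 1 FPKM. Without each library they ran from 479 to 894 and 669 to 729 in D1E6 and from 348 to 784 and 700 to 947 in E2G7 (479 without D1E6 replicate 1, 348 without E2G7 replicate 2). The difference between the pairs held 2090 genes with a pseudocount of 1 and 2373 at 1 FPKM (3418 to 3695 without each library), and D2A7 against E2E8 1853 and 2189 (2898 to 2977). The cause of these moves was not tested. Of the other counts 151 stayed within 1.5 times. Of 1046 refits of single named genes, none turned a called direction and 81 fell below the threshold, 18 of them with a pseudocount of 1. Many of the named genes, such as *Hdac1* and *Sox2*, were not called in the main fit and could not fall below the threshold. The share of refits lost among called genes was therefore larger. The hairpin calls rest on at most 40 fragments a library, and the part of depth in them was not tested.

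With the replicate number as a block, 140 genes were higher and 52 lower, and 45 and 7 of them were shared with the second pair. The correlation of same-numbered libraries' deviations was -0.121 in D1E6 and E2G7, so the numbers are not shown to pair the libraries. The crossed pairing, added after seeing the data, gave 144 higher and 67 lower genes.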

Other observations

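Small nuclear RNAs of the RNA processing machinery, chosen after their values were seen, were among the most abundant calls between the clones. *snoU2_19* was at 432 and 542 FPKM in D1E6 and at 261 and 289 FPKM in E2G7, a log2 fold change of 0.80 (limma adjusted p = 0.0684). *Scarna9*, a small Cajal body RNA that guides changes of spliceosomal RNA, was at 184 and 187 against 111 and 132 FPKM (0.60, adjusted p = 0.064), and *SCARNA17* at 50.9 and 54.3 against 28.2 and 35.8 FPKM (0.71, adjusted p = 0.077). *SCARNA11* went the other way, at 1.22 and 1.77 against 3.01 and 2.55 FPKM (-0.88, adjusted p = 0.102). Among 145 annotated small nucleolar RNAs tested, 3 were higher and 1 lower (2.76%, with 1.13% over all genes). The recovery of such short RNAs depends on fragment length in the library, which was not tested here.

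*Npy*, the neuropeptide Y gene, and *Gpnmb*, a melanosome and lysosome glycoprotein gene, both on chromosome 6 and chosen after their values were seen, were higher in D1E6. *Npy* was at 3.44 and 3.32 against 2.08 and 2.06 FPKM (0.67, adjusted p = 0.043), and D2A7 also exceeded E2E8 (0.71). *Gpnmb* was at 13.1 and 13.0 against 8.01 and 8.56 FPKM (0.64, adjusted p = 0.0366), whereas D2A7 and E2E8 held 19.4 to 23.3 FPKM.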
